A study of Mus musculus with 2 samples.

Results

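The AP-1 and immediate early genes described here are 10 genes, Fos, Fosb, Jun, Junb, Jund, Egr1, Egr3, Atf3, Ier2 and Nr4a1, chosen by symbol from the 31053 genes of the deposited tables. All 10 were found. They were measured by droplet single-cell RNA-seq (10x Genomics) in LSK CD150+ cells from mouse bone marrow, lineage-negative cells sorted for Sca-1, Kit and CD150 on their surface. A library came from cells labelled RUNX1 KO and the other from cells labelled RUNX1 WT, with some 10000 sorted cells loaded for each. The study set out to compare which kinds of cells make up the sort in the 2 genotypes.

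The labels give the model as Runx1F/F Mx1-Cre, mice with loxP-flanked Runx1 alleles and a recombinase gene under the interferon-inducible Mx1 promoter. Mx1-Cre acts in many interferon-responsive cells and not in blood stem cells alone. Which of these alleles the WT mice carried, whether and when an inducer was given to either group, the age of the mice and the number of animals behind each library are not given in the sources used here. With 1 library per genotype no difference was tested and none has a replicate check. Intervals are exact 95% intervals that cover counting error only.

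Immediate early genes are transcribed within minutes of a growth factor, cytokine or stress signal, from factors already present in the cell, so their transcripts report recent signalling. The Fos and Jun proteins pair through leucine zippers to form AP-1, a transcription factor that binds TGANTCA and related sites. Fos family proteins need a Jun partner to bind DNA, whereas Jun proteins can pair among themselves. These genes are also known to be switched on by tissue dissociation and cell sorting.

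Short promoter windows of Fos and Jun family members are printed here and were searched for short elements known for signal-driven transcription. Sequences are from RefSeq on GRCm38.p6, which held 7 of the 10 members, without Egr1, Egr3 and Ier2. Each is the 150 bases before the RefSeq start of transcription, 5′ to 3′ on the strand of the gene, and capitals mark matches to the motifs searched. The Fos window is chr12:85473740-85473889 on the plus strand, the Fosb window chr7:19310046-19310195, the Jun window chr4:95052223-95052372 and the Junb window chr8:84978749-84978898, all on the minus strand.
Fos: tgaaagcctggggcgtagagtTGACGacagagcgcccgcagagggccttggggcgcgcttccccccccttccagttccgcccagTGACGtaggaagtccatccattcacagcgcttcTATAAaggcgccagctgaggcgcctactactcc
Fosb: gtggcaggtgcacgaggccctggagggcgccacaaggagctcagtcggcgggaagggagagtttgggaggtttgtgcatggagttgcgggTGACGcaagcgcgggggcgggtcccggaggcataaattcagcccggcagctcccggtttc
Jun: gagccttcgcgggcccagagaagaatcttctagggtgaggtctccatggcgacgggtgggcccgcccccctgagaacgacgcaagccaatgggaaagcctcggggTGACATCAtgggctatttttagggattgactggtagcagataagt
Junb: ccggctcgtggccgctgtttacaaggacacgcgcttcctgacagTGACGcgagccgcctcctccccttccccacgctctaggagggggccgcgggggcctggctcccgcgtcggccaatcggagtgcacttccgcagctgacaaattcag

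The motifs were TGACG, the core of the cyclic AMP response element, and TGACNTCA, an AP-1 and ATF site that also holds TGACG where N is G, both searched on both strands. TGANTCA, the classical AP-1 site, was also searched on both strands, TATAA on the strand of the gene only, and the CArG box, the site of serum response factor, by its usual definition. TGACG was found at 2 places in the Fos window, the nearer one beginning 66 bases before the start, and once each in Fosb (60 bases before) and Junb (106 bases before). It was also found in the windows of Atf3 and Nr4a1, which are not shown. Among 27025 promoter windows of the same length, 1 per gene, 13.5% held TGACG. The Jun window had TGACNTCA beginning 45 bases before the start, against 5.85% of all windows. TATAA stood 33 bases before the start in Fos alone of the 7 members, against 10.6% of all windows. TGANTCA and the CArG box, in 4.27% and 0.884% of all windows, were found in none of the 7 windows. Bases further upstream were not searched, so the windows cannot tell whether a promoter lacks an element. These are matches of letters in a short window and no measure of binding.

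After leaving out barcodes with fewer than 500 genes or more than 10% of UMIs (unique molecular identifiers, 1 per captured transcript) from mitochondrial genes, 10769 cells remained in the KO-labelled library and 9472 in the WT library, with medians of 9310 UMIs in KO-labelled and 9884 UMIs in WT cells. Runx1 went against its label, at 196 CPM (UMIs per 1000000 UMIs) in the KO-labelled library and 104 CPM in the WT library. The labels do not name the deleted part of the gene, so 3′ tags check nothing about the genotype, and directions below are those of the library labelled KO. Most KO-labelled cells, 82.9%, had the female pattern of Xist and Y-linked UMIs and 9.04% the male one, whereas 70.6% of WT cells had the male one. The libraries shared 33 barcodes of kept cells. The sort held more than stem cells. A UMI of Procr, which encodes a surface receptor of mouse blood stem cells, was found in 7.32% of KO-labelled and 9.90% of WT cells. Procr was sparse, at 8.48 CPM in the KO-labelled and 11.3 CPM in the WT library, so cells without its UMI may still express it. Neutrophil, basophil and haemoglobin genes were also present, with sums of 593, 1.95 and 905 CPM in the KO-labelled library and 109, 243 and 242 CPM in the WT library.

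Most of the members were higher in the KO-labelled library, Fos and Fosb most and Jun, Jund and Junb less, while Egr1 went the other way. Of the 10 members 7 had a ratio above 1 and 3 below 1, and 7 reached 20 CPM in either library. The 3 under that floor, Atf3, Egr3 and Nr4a1, had 1 ratio above 1 and 2 below. Of the 7 at the floor 6 were above 1, against 34.9% of all 5904 genes at the floor. At that floor 2 of the 7, Fos and Fosb, were at least 1.5-fold higher, against 2.25% of all 5904 genes at the floor, and 1, Egr1, was at least 1.5-fold lower, against 2.03% of them. Egr1 reached the floor in the WT library alone, at 22.5 CPM against 14.6 CPM in the KO-labelled library. It could therefore be counted only as lower. At 2-fold 1 member, Fosb, was higher, against 0.881%, and 0 were lower, against 0.61%. The call of Egr1 was lost with TMM scaling (0.694), with a total free of mitochondrial and ribosomal protein genes (0.674), with at most 5% mitochondrial UMIs and 1000 genes (0.751), in male cells (0.797) and over cells thinned to 3000 UMIs (0.676). Both higher calls were lost with equal weights for bins of mitochondrial share (Fos 1.29, Fosb 1.41). The median log2 ratio was 0.36 over the 7 members at the floor and 0.31 over all 10, against -0.070 over all 5904 genes. Summed over the 10 genes the level was 1170 CPM in the KO-labelled library and 885 CPM in the WT library, a ratio of 1.32 (1.31 to 1.33). Jun and Jund made up most of that sum.

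Fos, whose protein is the inducible partner in many AP-1 dimers, stood at 78.1 CPM (76.5 to 79.7) in the KO-labelled library and 40.7 CPM (39.5 to 41.9) in the WT library, a ratio of 1.92 (1.85 to 1.99). Fosb, a close relative that is known to yield a long and a truncated protein by splicing, stood at 62.7 CPM (61.3 to 64.2) in the KO-labelled library and 30.0 CPM (29.0 to 31.0) in the WT library. Its ratio of 2.09 (2.01 to 2.18) was the highest among the 7 members at the floor. By ratio, Fosb ranked 44th and Fos 64th from the top of the 5904 genes.

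The 3 Jun family members were also higher, each by less than 1.5-fold. Jun, the founding partner of Fos, stood at 426 CPM (422 to 430) in the KO-labelled library and 314 CPM (310 to 317) in the WT library, a ratio of 1.36 (1.34 to 1.38). Jund, the member known for steady expression in resting cells, was at 423 CPM (419 to 426) in the KO-labelled library and 329 CPM (326 to 332) in the WT library, with a ratio of 1.29 (1.27 to 1.30). Junb, which restrains stem cell proliferation in mice, was at 58.7 CPM (57.3 to 60.1) in the KO-labelled library and 48.9 CPM (47.6 to 50.2) in the WT library, with a ratio of 1.20 (1.16 to 1.24). Counts are 1 per captured 3′ end, with no division by length, so levels of different genes on this CPM scale can be set side by side, apart from differences in capture. Jun overlaps Junos on the opposite strand, Junb overlaps Prdx2 and Jund overlaps Gm11175, and the sources used here do not give the strand setting of the counting.

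Egr1, a zinc finger factor known in mice to hold blood stem cells in the marrow and in quiescence, was the one well-detected member that was lower. It stood at 14.6 CPM (13.9 to 15.3) in the KO-labelled library and 22.5 CPM (21.6 to 23.4) in the WT library, a ratio of 0.649 (0.610 to 0.690). Fos and Egr1 therefore diverged, with 5.35 Fos UMIs (5.08 to 5.63) for each Egr1 UMI in the KO-labelled library and 1.81 (1.72 to 1.90) in the WT library. Its relative Egr3 had 7 UMIs in the KO-labelled library and 29 in the WT library, or 0.0587 CPM (0.0236 to 0.121) in the KO-labelled library and 0.257 CPM (0.172 to 0.370) in the WT library.

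Ier2, a short nuclear protein of the early response, was the member closest to equal. It stood at 106 CPM (104 to 108) in the KO-labelled library and 98.0 CPM (96.2 to 99.8) in the WT library, with a ratio of 1.08 (1.05 to 1.11). Atf3, a stress-induced factor that can pair with Jun proteins, and Nr4a1, an orphan nuclear receptor, were barely detected. Atf3 had 43 UMIs in the KO-labelled library and 29 in the WT library, a ratio of 1.40 whose interval (0.855 to 2.33) includes 1. Nr4a1 had 148 UMIs in the KO-labelled library and 181 in the WT library, a ratio of 0.772 (0.617 to 0.965). Ratios of Egr3, Atf3 and Nr4a1 rest on these few UMIs.

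**Figure D1:**
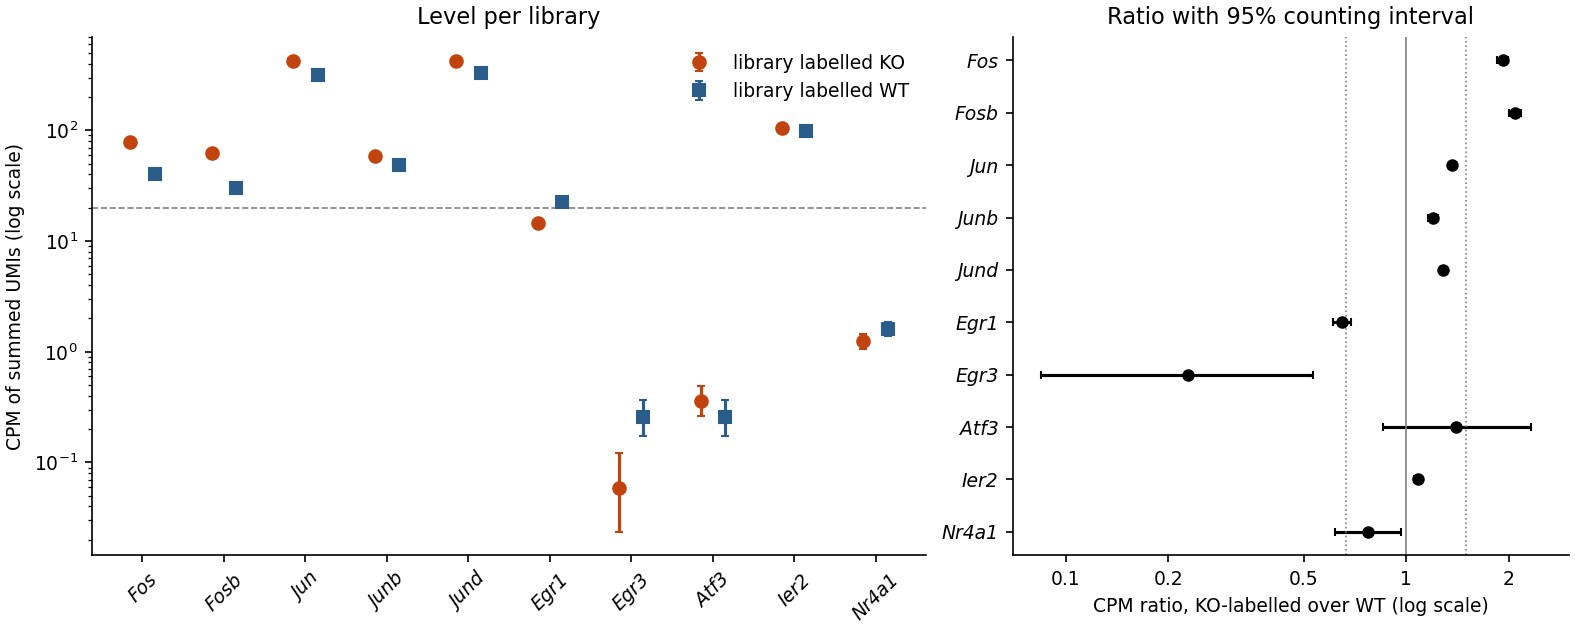
Left, level of each of the 10 members in CPM on a log axis in the library labelled KO (circles) and the library labelled WT (squares), with exact Poisson 95% intervals and a dashed line at 20 CPM. Right, the ratio of KO-labelled over WT on a log axis with exact 95% intervals and dotted lines at 1.5-fold either way. Fos and Fosb lie to the right of them at 1.92 and 2.09. Egr1 lies to the left at 0.649 and Egr3, from 7 KO-labelled and 29 WT UMIs, further left at 0.228.

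The cells that held these transcripts were counted after thinning each cell to 3000 UMIs, so that depth is equal; 91 KO-labelled and 155 WT cells were shallower and were left out. A Fos UMI was found in 19.8% (19.1 to 20.6) of thinned KO-labelled cells and 11.1% (10.4 to 11.7) of WT cells, and a Fosb UMI in 17.04% of KO-labelled and 8.67% of WT cells. Jun and Jund were found in most cells, Jun in 62.3% of KO-labelled and 50.3% of WT cells and Jund in 68.1% of KO-labelled and 57.8% of WT cells. Junb was found in 16.6% of KO-labelled and 14.7% of WT cells, and Ier2 in 28.2% of KO-labelled and 26.7% of WT cells. Egr1 was found in 5.19% (4.78 to 5.63) of KO-labelled and 7.32% (6.80 to 7.87) of WT cells. Shares therefore ran the same way as the CPM for each of these 7 genes. Without thinning, a Fos UMI was found in 39.8% of KO-labelled and 25.7% of WT cells and an Ier2 UMI in 59.3% of cells in both libraries. Egr3, Atf3 and Nr4a1 were each found in less than 1% of thinned cells in either library. No cell type in the sort is known to lack these genes, so a background share from free RNA could not be read.

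Cells were then set apart by a UMI of Procr, of Mpo (the neutrophil granule enzyme myeloperoxidase) or of Car1 (a carbonic anhydrase of early erythroid cells), or by at least 3 UMIs of Pf4 (a platelet chemokine). These were 788, 2551, 2302 and 2042 KO-labelled cells and 938, 2018, 2379 and 3178 WT cells in that order, and some cells were in more than 1 class. The members were highest in Procr-positive cells and in cells of none of the 4 classes. The sum over the 10 was 1595 CPM in KO-labelled and 1262 CPM in WT Procr-positive cells, and 1480 CPM in KO-labelled and 1097 CPM in WT cells of no class. In Pf4-positive cells it was 1034 CPM in the KO-labelled and 823 CPM in the WT library, in Mpo-positive cells 1015 CPM in the KO-labelled and 786 CPM in the WT library, and in Car1-positive cells 828 CPM in the KO-labelled and 739 CPM in the WT library. By this rule the sum was higher in the KO-labelled library in each class, by 1.12-fold in Car1-positive cells up to 1.35-fold in cells of no class. With 3 UMIs asked of each class gene its ratio was 1.01 (0.989 to 1.04) in Car1-positive and 1.53 (1.39 to 1.68) in Procr-positive cells. Median depth differed between classes, at 7776.5 UMIs in KO-labelled and 7690.5 UMIs in WT Procr-positive cells, against 11747 UMIs in KO-labelled and 12920 UMIs in WT Mpo-positive cells. In cells of no class it was 7814 UMIs in the KO-labelled and 7714 UMIs in the WT library. The sets with the highest sums were thus those with the lowest median depth, and the part of depth was not tested.

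Fos and Fosb were higher in the KO-labelled library in all 5 sets of cells. Fos was at 124 CPM in KO-labelled and 86.6 CPM in WT Procr-positive cells, a ratio of 1.44 (1.31 to 1.57), and its ratio was 1.79 in Pf4-positive, 2.01 in Mpo-positive, 1.504 in Car1-positive and 1.77 in unclassed cells. Fosb was at 82.4 CPM in KO-labelled and 53.7 CPM in WT Procr-positive cells, a ratio of 1.54 (1.37 to 1.73), and its ratio lay between 1.98 and 2.28 in the other 4 sets. The order of the classes rests on the rule for them. With 3 UMIs asked of Procr, which left 38 KO-labelled and 73 WT cells, the Fos ratio was 2.33 (1.62 to 3.34) and the Fosb ratio 2.20 (1.26 to 3.86), and with 3 UMIs of Car1 they were 1.31 and 1.76. Egr1 was lower in all 5 sets. It was at 19.7 CPM in KO-labelled and 37.4 CPM in WT Procr-positive cells, a ratio of 0.528 (0.435 to 0.638), and its ratio was 0.605 in Pf4-positive, 0.696 in Mpo-positive, 0.502 in Car1-positive and 0.666 in unclassed cells. Ier2 ratios were 0.958 to 1.14.

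Called by the same 1.5-fold rule within Procr-positive cells, 1 member was higher and 1 lower of the 7 at the floor, against 2.78% and 3.54% of all genes. The higher one was Fosb, whose ratio was 1.37 in cells positive for Procr and no other class gene, where Jun was at 1.51, while with 3 UMIs of Procr Fos, Fosb, Jun, Junb and Ier2 were at 1.55 or more. In Car1-positive cells these were 2 and 1 of 7, against 1.9% and 2.38%, although Fos, at 1.504, was at 1.49 in cells of that class alone and at 1.31 with 3 UMIs of Car1. In cells of no class these were 2 and 1 of 7, against 2.14% and 2.99%. In Pf4-positive cells 2 were higher and 0 lower of 6, against 2.67% and 2.52%, and in Mpo-positive cells 2 and 0 of 6, against 1.89% and 1.87%. Egr1 was under the 20 CPM floor in both libraries in those last 2 classes and so was not counted in them. In Procr-positive, Car1-positive and unclassed cells Egr1 reached the floor in the WT library alone, so there it could be counted only as lower. The number of Fos UMIs per Egr1 UMI was 2.66 to 2.999 times as high in the KO-labelled library over the 5 sets.

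**Figure D2:**
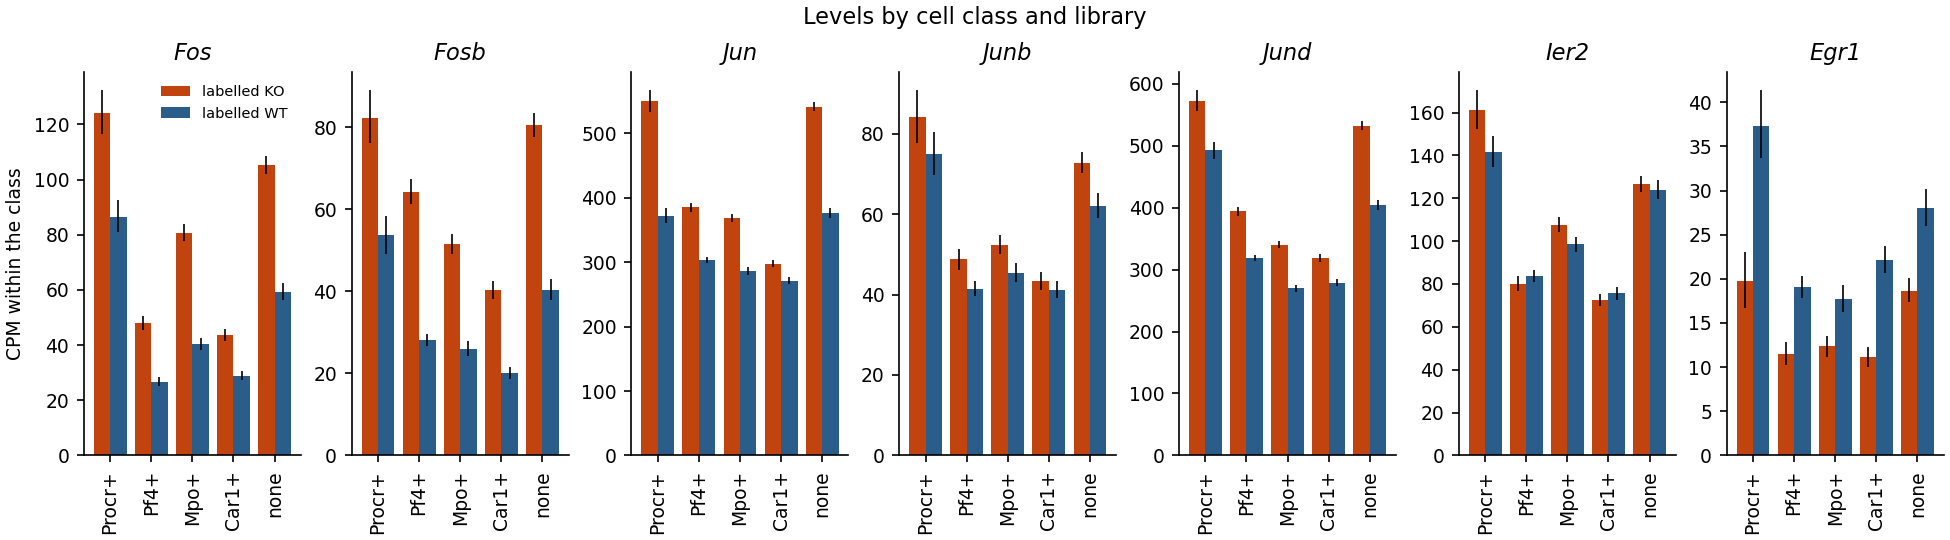
Level in CPM of the 7 members at 20 CPM in Procr-, Pf4-, Mpo- and Car1-positive cells and in cells of none of these classes, KO-labelled (left bar of each pair) and WT (right bar), with exact Poisson 95% intervals; each panel has its own axis from 0. Fos and Fosb bars are higher in the KO-labelled library in each class and Egr1 bars lower, while Ier2 ratios stay between 0.958 and 1.14.

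Differences between classes could also be read within each library, where it was present in both. Fos was 1.66-fold higher in Procr-positive than in other KO-labelled cells and 2.39-fold higher in the WT library. Ier2 was 1.58-fold higher there in the KO-labelled library and 1.51-fold higher in the WT library. These 2 of the 6 members at the floor were at least 1.5-fold higher in both libraries, against 4.03% of all genes, and 0 lower, against 1.52%. In Car1-positive cells 2 of 6 were at least 1.5-fold lower in both libraries, against 4.7%, and 0 higher, against 2.26%. The 2 were Fos (0.478 in the KO-labelled library and 0.628 in the WT library) and Fosb (0.566 in the KO-labelled library and 0.579 in the WT library). In Pf4-positive cells 1 of 6, Fos, was lower by that rule (0.552 in the KO-labelled library and 0.530 in the WT library), against 2.96%, and 0 were higher, against 2.52%, whereas Fosb was near equal (1.03 in the KO-labelled library and 0.897 in the WT library). In Pf4-positive cells Fos and Fosb were at 48.0 and 64.2 CPM in the KO-labelled library, and at 26.8 CPM (25.3 to 28.3) and 28.1 CPM (26.6 to 29.7) in the WT library, where their intervals overlap. In Mpo-positive cells Fos was above Fosb in both, at 80.8 and 51.5 CPM in the KO-labelled library and 40.3 and 26.0 CPM in the WT library.

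The members were also lower in cycling cells. A UMI of Mki67, a marker of proliferating cells, was found in 47.4% of KO-labelled and 57.8% of WT cells. In these cells the 10 genes summed to 933 CPM in the KO-labelled library, against 1559 CPM in its Mki67-negative cells, and in the WT library to 762 CPM, against 1206 CPM. By the 1.5-fold rule 5 of 7 members were lower in Mki67-positive cells in both libraries, against 2.12% of all genes, and 0 were higher, against 5.83%. Junb was at 0.490 of its level in Mki67-negative cells in the KO-labelled library and 0.526 in the WT library, Ier2 at 0.512 in the KO-labelled and 0.543 in the WT library, and Egr1 at 0.427 in the KO-labelled and 0.527 in the WT library. Fosb (0.724 in the KO-labelled and 0.682 in the WT library) and Jun (0.678 in the KO-labelled and 0.763 in the WT library) were the members that were not lower by that rule in both libraries. Depth moved with this split, with medians of 12796.5 UMIs in Mki67-positive and 7261 UMIs in Mki67-negative KO-labelled cells and of 12733.5 UMIs in Mki67-positive and 6996 UMIs in Mki67-negative WT cells. Its part in the difference was not tested. Within Mki67-negative cells the KO-labelled library still had Fos at 1.73, Fosb at 1.94 and Egr1 at 0.663 of the WT level, and within Mki67-positive cells at 1.86, 2.06 and 0.537. By the 1.5-fold rule these made 2 members higher and 1 lower of 7 in Mki67-negative cells, against 2.56% and 3.36% of all genes, and 2 higher and 0 lower of 6 in Mki67-positive cells, against 1.98% and 2%. Egr1 was not counted in Mki67-positive cells, where it was under the 20 CPM floor at 9.69 CPM in KO-labelled and 18.0 CPM in WT cells.

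The sex of the cells could be held equal, but not their depth or cycling. Median depth was 9477 UMIs in male KO-labelled and 11068 UMIs in male WT cells. Of these, 46.9% of KO-labelled and 62.7% of WT cells were Mki67-positive, and the part of either was not tested. Between male cells of the libraries, 973 KO-labelled and 6690 WT, Fos had a ratio of 1.74 (1.61 to 1.89) and Fosb of 2.04 (1.87 to 2.22), and 2 of 7 members were at least 1.5-fold higher, against 2.38% of all genes. Egr1 had a ratio of 0.797 (0.679 to 0.930) and 0 members were 1.5-fold lower, against 2.3%. Male over female cells within the KO-labelled library gave a ratio of 0.859 (0.794 to 0.927) for Fos, 1.19 (1.01 to 1.39) for Egr1 and 0.964 for the sum. Of 6 members at the floor 0 were 1.5-fold higher and 0 lower, against 0.159% and 0.176% of all genes.

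Transcripts of the members were found together in the same cells more often than the product of their shares. In cells thinned to 3000 UMIs, 40 of the 45 pairs in the KO-labelled library and 37 in the WT library were above 1 in the ratio of cells with both genes to that product. Over the 23 pairs whose product came to at least 20 cells, the median ratio was 1.18 (range 1.01 to 1.57) in the KO-labelled library and 1.26 (range 0.934 to 1.99) in the WT library. Fos and Fosb were both found in 544 KO-labelled cells, against 360 from the product, a ratio of 1.51, and in 178 WT cells, against 89.3, a ratio of 1.99. Fos and Egr1 were both found in 172 KO-labelled cells, against 110, a ratio of 1.57, and in 122 WT cells, against 75.4, a ratio of 1.62. The genes that differed in opposite directions between libraries were thus found together within each library. Fos and Junb had a ratio of 1.46 in the KO-labelled library and 1.64 in the WT library, whereas Fosb and Junb had 1.05 in the KO-labelled and 1.26 in the WT library. These values describe cells of 1 library each, which share that library, and cells of different kinds are pooled in them. Within the 4 classes and the unclassed cells, the median over pairs with a product of at least 20 was 1.12 to 1.29 in the KO-labelled library and 1.13 to 1.32 in the WT library.

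**Figure D3:**
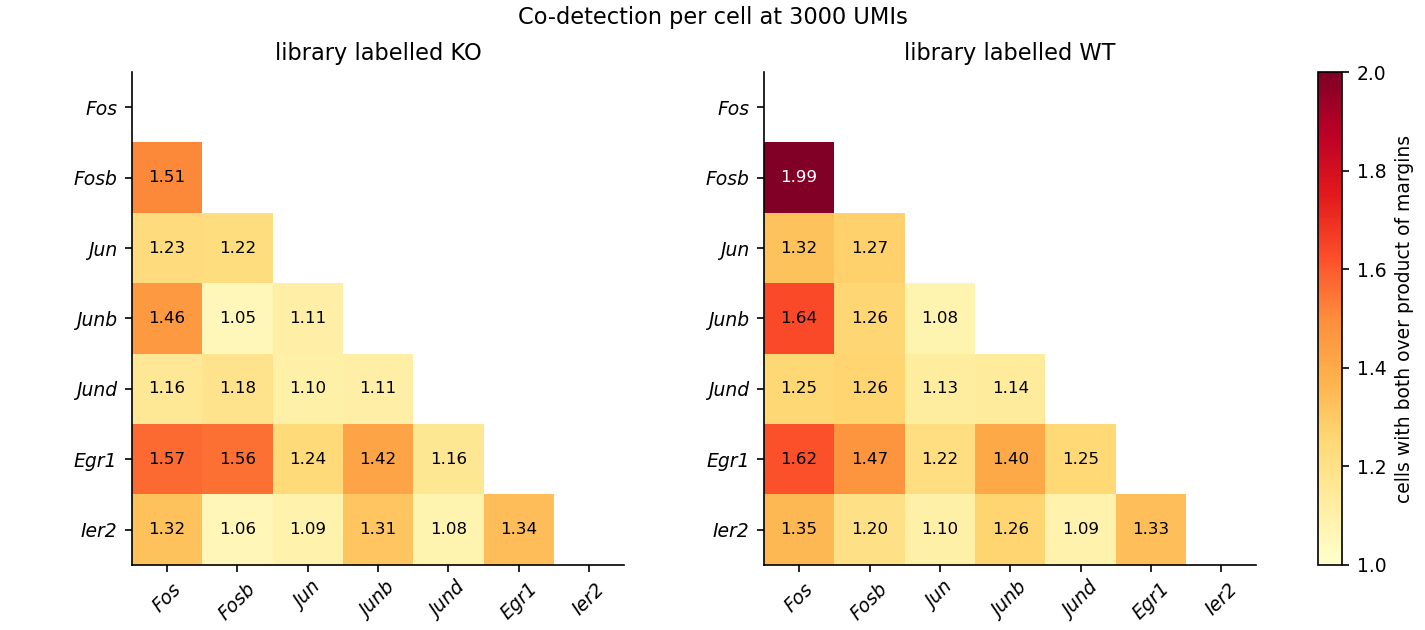
Ratio of cells with both genes to the product of their shares, for pairs of the 7 members at 20 CPM in cells thinned to 3000 UMIs, in the library labelled KO (left) and WT (right). Fos and Fosb have ratios of 1.51 in the KO-labelled and 1.99 in the WT library, and Fosb and Junb 1.05 in the KO-labelled and 1.26 in the WT library.

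Per cell, a mean of 2.18 of the 10 members was found in thinned KO-labelled cells and 1.77 in WT cells. No member was found in 10.1% of KO-labelled and 15.7% of WT cells, against 4.52% in the KO-labelled and 9.79% in the WT library from the product of the shares. At least 5 members were found in 4.50% of KO-labelled and 2.20% of WT cells, against 1.70% in the KO-labelled and 0.606% in the WT library from the product. At least 6 were found in 0.833% of KO-labelled cells and 0.483% of WT cells. Procr-positive cells had 2.56 members per cell in the KO-labelled library and 2.32 in the WT library, and Car1-positive cells 1.83 in the KO-labelled library and 1.60 in the WT library. Cells with many members and cells with none were thus both more frequent than the shares alone give.

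**Figure D4:**
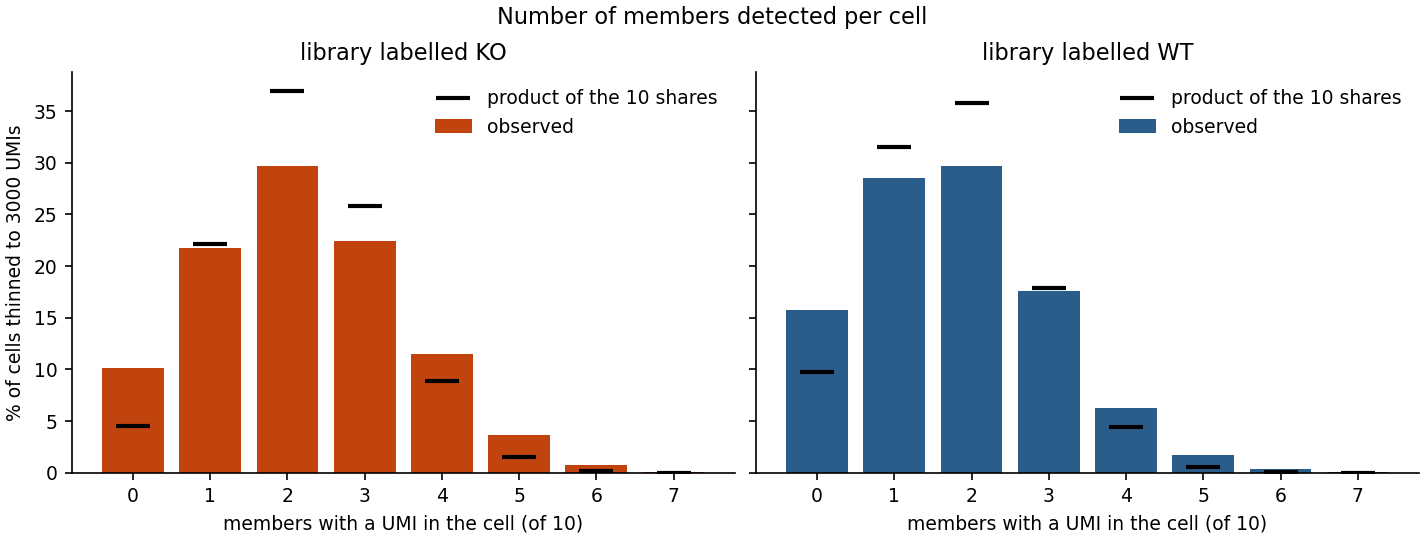
Percent of cells thinned to 3000 UMIs (bars) by the number of the 10 members with a UMI, up to 7, in the library labelled KO (left) and WT (right); black marks give the percent from the product of the 10 shares. Cells with none make up 10.1% in the KO-labelled library, above its mark at 4.52%, and 15.7% in the WT library, above its mark at 9.79%.

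Handling and cell damage were approached through the share of mitochondrial UMIs per cell. Over thinned cells the Spearman correlation of the summed members with that share was 0.017 in 10678 KO-labelled cells and 0.076 in 9317 WT cells, and single members lay between -0.028 (Fosb) and 0.065 (Ier2) in the KO-labelled library and between -0.026 (Jun) and 0.090 (Ier2) in the WT library. The sum correlated more with total depth, at -0.349 in KO-labelled and -0.279 in WT cells. In such sparse counts weak values are no finding.

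In bins of mitochondrial share, levels scaled as CPM to the non-mitochondrial UMIs stood apart in WT cells at 6 to 8%, for Fos, Egr1 and some other members. In the KO-labelled library Fos was at 79.6 in cells with 2 to 4% mitochondrial UMIs, 83.3 at 4 to 6% and 66.9 at 6 to 8%. In the WT library it was at 38.5, 38.9 and 86.5 in the same bins. Egr1 was at 14.7, 15.4 and 16.9 in the KO-labelled library and 19.6, 22.0 and 43.8 in the WT library. From 4 to 6% to 6 to 8% in the WT library, Fosb rose from 29.8 to 51.7 and Junb from 47.7 to 83.7. Jund rose there from 333 to 492 and Ier2 from 99.4 to 155, while Jun was at 330 and 329. The Fos ratio was 2.07 (1.85 to 2.33) at 2 to 4%, 2.14 (2.05 to 2.23) at 4 to 6% and 0.773 (0.644 to 0.922) at 6 to 8%, and the sum ran likewise at 1.40, 1.35 and 0.912. Egr1 was lower in the KO-labelled library in each of these bins, with ratios of 0.751, 0.700 and 0.386. At 6 to 8% the ratios of Junb, Jund and Ier2 were 0.767, 0.855 and 0.952, and those of Fosb and Jun 1.03 and 1.11. The end bins held few cells, 88 KO-labelled and 61 WT cells at 0 to 2%, where Fos was at 34.1 in KO-labelled and 39.8 in WT cells, and 34 KO-labelled and 107 WT cells at 8 to 10%, where it was at 73.6 in KO-labelled and 57.9 in WT cells.

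The cells at 6 to 8% were 286 (2.66%) of the KO-labelled and 1249 (13.2%) of the WT cells. In that bin 17.8% of KO-labelled and 28.6% of WT cells were Procr-positive, against 8.88% of KO-labelled and 7.57% of WT cells at 4 to 6%, and the median depth was 6632.5 UMIs in KO-labelled and 6378 UMIs in WT cells. Within Procr-positive cells the Fos ratio was 1.75 (1.57 to 1.96) at 4 to 6% and 0.787 (0.538 to 1.12) at 6 to 8%, the last from 51 KO-labelled and 357 WT cells. The sum over the 10 was still higher in KO-labelled Procr-positive cells at 6 to 8%, with a ratio of 1.17 (1.07 to 1.28). Jun and Ier2 were above 1 there, as were Fosb, Junb and Jund with intervals that include 1, and Egr1 was at 0.418 (0.177 to 0.847). In Car1-positive cells at 6 to 8% the sum had a ratio of 0.622 (0.555 to 0.695). In WT cells Fos was higher at 6 to 8% than at 4 to 6% in 3 of the 4 classes, at 137 against 77.8 in Procr-positive, 65.7 against 41.3 in Mpo-positive and 54.7 against 28.7 in Car1-positive cells, whereas Pf4-positive cells had 29.1 in both bins. The part of handling and of cell type in these differences was not tested.

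**Figure D5:**
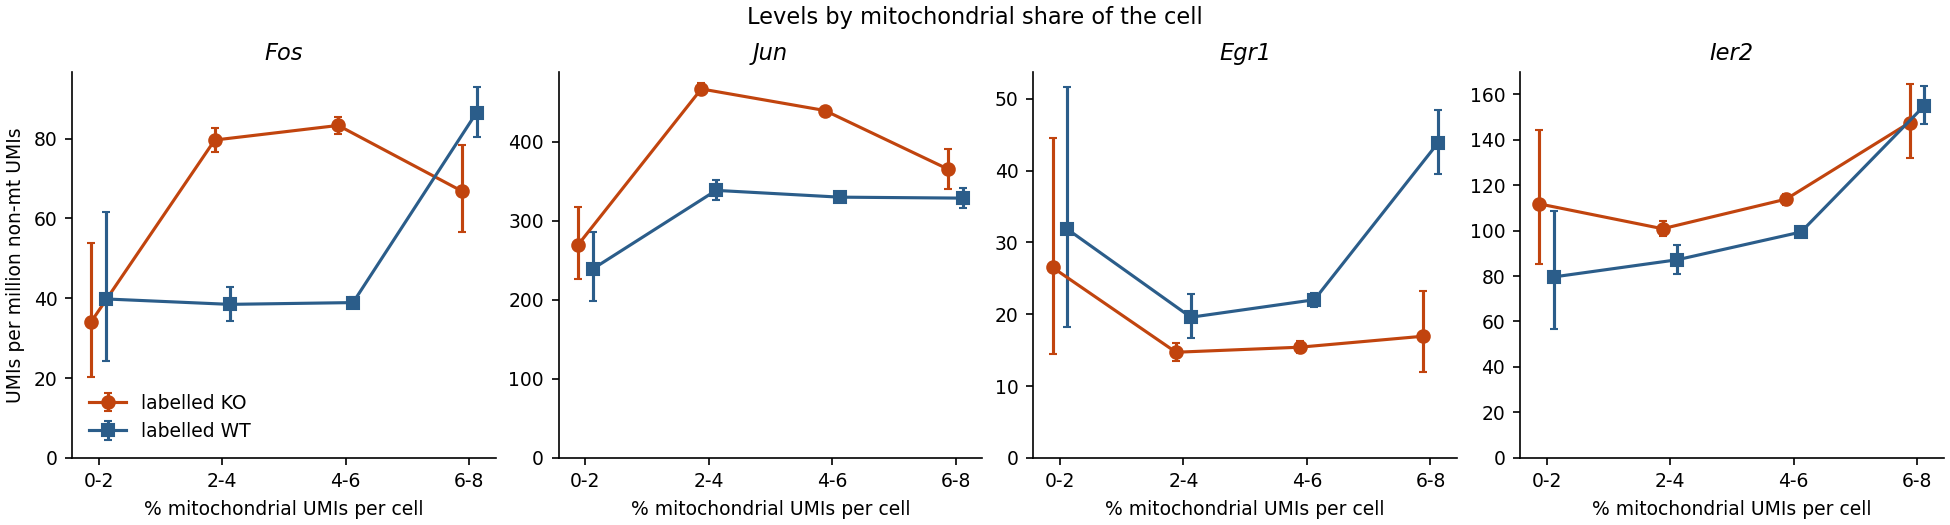
Level of Fos, Jun, Egr1 and Ier2, as CPM of the non-mitochondrial UMIs, by the percent of mitochondrial UMIs of the cell, in the library labelled KO (circles) and WT (squares), with exact Poisson 95% intervals; the bin of 8 to 10%, with 34 KO-labelled and 107 WT cells, is not drawn. Fos is at 86.5 in WT cells at 6 to 8%, above the 38.9 of WT cells at 4 to 6% and the 66.9 of KO-labelled cells at 6 to 8%.

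Genes of the heat shock response, which dissociation is also known to switch on, differed by less than 1.5-fold where they were at the floor. Their median ratio lay below that of all genes. Of 8 at the 20 CPM floor 2 were above 1, against 34.9% of all 5904 genes, and 0 were 1.5-fold higher and 0 lower, against 2.25% and 2.03%. The median log2 ratio was -0.15, against -0.070 over all genes. Hsph1 reached the floor in the WT library alone, at 28.9 CPM against 19.7 CPM, so it could be counted only below 1. Hspa8, a constitutive chaperone, had a ratio of 1.18, Dnaja1, its co-chaperone, 1.05, Hsp90aa1, the inducible form of HSP90, 0.783, Hsph1 0.681 and Hspe1, a mitochondrial chaperonin, 0.840. The sum over the 11 genes of the list was 7420 CPM in the KO-labelled library and 7778 CPM in the WT library. The strongly inducible Hspa1a and Hspa1b, under the floor and chosen after their values were seen, were at 0.721 and 0.956 CPM in the KO-labelled library and 7.08 and 4.94 CPM in the WT library. Their ratios were 0.102 (0.0805 to 0.127) and 0.194 (0.157 to 0.237).

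The more abundant of the other immediate early genes ran the way of Fos and Jun. Of 40 genes on that list 16 were at the floor, 15 of them with a ratio above 1, against 34.9% of all 5904 genes, and 5 were at least 1.5-fold higher and 0 lower, against 2.25% and 2.03%. Their median log2 ratio was 0.32. Cebpd, a C/EBP factor, was at 21.6 CPM in the KO-labelled library and 10.9 CPM in the WT library, a ratio of 1.98, Rhob, a small GTPase, at 46.2 CPM in the KO-labelled and 23.9 CPM in the WT library, a ratio of 1.93, and Pim1, a kinase induced by cytokines, at 159 CPM in the KO-labelled and 87.2 CPM in the WT library, a ratio of 1.82. The RNA-binding protein gene Zfp36 (1.57) and the phosphatase gene Dusp1 (1.52), named here as the remaining 2 of those 5, were also higher. Cebpd, Zfp36 (19.8 CPM in the WT library) and Dusp1 (18.8 CPM there) reached the floor in the KO-labelled library alone. Their ratios above 1 were thus fixed by the floor, as for any such gene among the 5904. Zfp36l1, a relative of Zfp36, was the 1 below 1, at 0.977. The 24 genes under the floor were mixed, 10 above 1 and 14 below. Among these, and chosen after their values were seen, Socs3, a feedback inhibitor of cytokine signalling, had 488 UMIs in the KO-labelled library and 186 in the WT library, a ratio of 2.48 (2.09 to 2.95), whereas Nr4a2, a relative of Nr4a1, had 293 in the KO-labelled library and 492 in the WT library, a ratio of 0.562 (0.485 to 0.651). Per1, a clock gene, was at 0.609, Trib1 at 0.424 and Ier5l at 0.315.

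Of 12 genes that encode further partners 5 were at the floor and 0 of them had a ratio above 1, against 34.9% of all genes, with a median log2 ratio of -0.15. Mafg, a small Maf protein, was lowest at 0.781, and Atf4 and Atf2, CREB-family factors, were at 0.899 and 0.902. Of 22 genes for upstream kinases and factors 12 were at the floor, 1 with a ratio above 1, against 34.9% of all genes. Their median log2 ratio was -0.15. The kinase gene Mapk9 was highest at 1.04, while Spred1, an inhibitor of RAS signalling, was at 0.704, Rps6ka3, a kinase downstream of ERK, at 0.765 and Elk4, a partner of serum response factor, at 0.775. None of the genes at the floor in either list was 1.5-fold higher or lower, against 2.25% and 2.03% of all genes, but both medians lay below the -0.070 of all genes. Under the floor 1 of 7 partner genes had a ratio above 1 and 6 below. The 6 included Fosl2 and Fosl1, of the same family as Fos and Fosb and named after their values were seen. Fosl2 was at 0.867 (0.769 to 0.978), and Fosl1 at 0.270 (0.106 to 0.608) from 8 KO-labelled and 28 WT UMIs. Of 10 upstream genes under the floor 0 were above 1 and 10 below.

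The genes whose UMIs per cell were most like the summed members were found over thinned cells, by the lower of the Pearson correlations in the 2 libraries on log2(UMI + 1) values. Of 5422 genes at 20 CPM in both libraries, the highest outside the members were Malat1, a nuclear long noncoding RNA (0.335), Ctla2a, a cysteine protease inhibitor (0.206), Rps14 (0.193), Rps24 (0.190), Txnip, a regulator of glucose uptake (0.179), Tpt1 (0.174), Rps27 (0.171) and the mitochondrial gene mt-Co1 (0.168). Members set against the sum of the other 9 reached 0.272 for Jund, 0.243 for Jun, 0.214 for Fos, 0.170 for Fosb, 0.146 for Ier2 and 0.123 for Junb. None of the top 20 genes was on the list of other immediate early genes, and the highest of the 13 on it that could be ranked, Pim1, was 33rd. Ppp1r15a was 41st, Klf6 82nd, Dusp2 83rd, Ier3 95th and Btg2 99th, and the lowest of the 13, Cebpb, was 1317th. Their correlations ran from 0.120 for Pim1 to 0.009 for Cebpb, against a median of -0.010 over all genes ranked. Levels differed widely, with Malat1 at 11051 CPM and Pim1 at 159 CPM in the KO-labelled library, and their part was not tested. These are weak correlations over cells that share a library.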

How the data were processed

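The members and gene lists were chosen with earlier results of these data known. The authors deposited raw UMI counts for each gene in each barcode. Per the submitters' processing notes the tool was Cell Ranger 2.1.1 and the build mm10. Per the file headers the software version was 3.1.0, and per the labels the kit was a 3′ v2 kit. No step was applied to the counts before use. Barcodes with at least 500 genes and at most 10% mitochondrial UMIs were kept, which left out 629 of 11398 KO-labelled and 497 of 9969 WT barcodes; doublets were not removed. The KO-labelled library held 120578398 UMIs and the WT library 113732196. UMIs were summed over cells and scaled to the total (CPM), with exact Poisson intervals for sums, exact conditional binomial intervals for ratios and Clopper-Pearson intervals for shares. With 1 library per genotype there was no test, and genes that reached 20 CPM in 1 library or both were counted where the ratio was 1.5 or more in either direction. In classes the CPM is per UMI of that class. Cells were thinned without replacement to 3000 UMIs for shares and co-detection. Male cells had a UMI of 1 of 4 Y-linked genes and no Xist UMI, and female cells at least 2 Xist UMIs and no Y-linked UMI. Overlaps of genes are from GENCODE M21 on GRCm38, matched by gene ID. All members were named, and from each other list up to 3 genes at each end by ratio, plus the 8 genes most like the members. The steps were tested on simulated sums. Python 3.11.15, numpy 2.4.6, scipy 1.17.1, pandas 2.3.3, matplotlib 3.10.9 and edgeR 4.0.16 (TMM factors only) were used.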

Additional observations from a re-analysis of the deposited data

How the results depend on the processing

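The summed ratio of 1.32 stayed above 1 under all 11 alternatives. It was 1.42 with TMM scaling, 1.37 scaled to a total without mitochondrial and ribosomal protein genes, 1.39 with at least 1000 genes and at most 5% mitochondrial UMIs (8701 KO-labelled and 4985 WT cells), 1.37 without the 5% of cells with most UMIs, 1.34 without cells rich in mature cell genes, 1.35 as a mean over thinned cells, 1.24 with equal weights for the 4 classes and 1.13 with equal weights for the 5 bins of mitochondrial share. The count of 2 members 1.5-fold higher became 0 with those equal bin weights and 1 at 2-fold. The count of 1 lower became 0 with TMM scaling, without mitochondrial and ribosomal genes in the total, with the strict filter, in male cells, over thinned cells and at 2-fold, and 2 with no CPM floor. The causes of these changes were not tested. Over the 11 alternatives Fos ratios ran between 1.29 and 2.26, Fosb between 1.41 and 2.32, Jun between 1.30 and 1.45, Jund between 1.04 and 1.38, Ier2 between 1.03 and 1.16 and Egr1 between 0.568 and 0.797; the lowest Junb ratio, 0.987, was below 1. Equal bin weights give 88 KO-labelled and 61 WT cells at 0 to 2% the same weight as 7341 KO-labelled and 7277 WT cells at 4 to 6%. Of the other values, 105 moved by less than their counting interval and 115 by more. No paired analysis was possible because there was 1 library per genotype. The depth cannot separate Atf3, and limits Egr3 and Nr4a1 to 7 to 181 UMIs.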
